A study of Macaca mulatta with 18 samples.

Results

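Boundaries between chromatin domains that were listed in GZ tissue of the fetal macaque brain and had no counterpart in CP tissue are described here. They were chosen by the positions of boundary bins in the deposited insulation lists: a 40 kb bin of the GZ list on an autosome was a member when no bin of the CP list lay within 40 kb, counted from start to start. Of 2704 autosomal GZ bins, 503 were members (18.6%, 95% Wilson interval 17.2% to 20.1%). The other 2201 had a CP bin in the same place (1425) or 1 bin away (776) and are called shared. In the other direction 284 of 2486 CP bins (11.4%) had no GZ bin within 40 kb and are called CP-only.

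All groups were wild type rhesus macaque brain at embryonic day 84. Hi-C had 3 libraries in each of GZ and CP, and each tissue had a single boundary list and a single loop list for its 3 libraries. For CTCF ChIP-seq and for DNase-seq there was 1 library of each tissue, and for RNA-seq there were 3. GZ and CP are not written out in the labels; in work on the developing cortex these letters usually stand for the germinal zone, where progenitors divide, and the cortical plate, where young neurons settle. Nothing in the labels says whether libraries with different numbers came from separate animals.

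A domain boundary is a stretch of chromosome that contacts cross less often than their distance predicts, and it shows as a dip in the insulation score of a Hi-C map. The loop extrusion model describes how cohesin reels in chromatin until it meets the zinc finger protein CTCF, so that CTCF sites are common at boundaries and at the anchors of loops. DNase-seq marks open chromatin, which includes promoters, enhancers and most CTCF sites. CTCF and DNase came from libraries other than Hi-C and are independent of how the members were chosen. Boundary strength and loops come from the same Hi-C libraries as the choice and are given as descriptions. With 1 list per tissue no difference was tested; intervals cover counting error only.

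RNA levels of marker genes were set beside the tissue names, and no matched marker was at 0. PAX6, a transcription factor of cortical progenitors, had log2 normalized FPKM of 5.02, 5.13 and 5.56 in GZ and 4.63, 3.99 and 4.13 in CP. MKI67, a proliferation marker, was 5.20, 5.57 and 4.70 in GZ and 3.59, 2.68 and 2.95 in CP. NEFL, a neurofilament gene of neurons, was 4.42, 2.99 and 2.63 in GZ and 6.41, 6.81 and 6.96 in CP. For each of these genes the tissues did not overlap. They did for NES, an intermediate filament gene of progenitors (6.16 to 6.55 in GZ and 5.46 to 6.19 in CP), and for TBR1, a factor of deep layer neurons (4.40 to 6.09 and 5.41 to 6.04). VIM, an intermediate filament gene of radial glia, went the other way, with 6.77 to 6.78 in GZ and 6.84 to 7.12 in CP. Some markers of other cell types differed too: GAD2 of GABAergic neurons had a mean of 6.58 in GZ and 4.58 in CP, and FLT1 of endothelium 1.57 and 3.66. For microglia genes the ranges overlapped. TYROBP had 2.21 to 3.32 in GZ and 1.91 to 3.08 in CP, and C1QC 3.55 to 4.18 and 4.01 to 4.58. The part of cell mixture in the boundaries was not tested. The GZ lists were also longer, with 29938 CTCF peaks against 21476, 81000 DNase peaks against 69872 and 14632 loops against 9138 on the autosomes. At 5414 loops called in the same pixels of both lists, the contacts expected from the neighbourhood were a median 1.235 times as many in GZ. Whether deeper GZ data add boundaries was not tested.

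Members were weak boundaries. Their strength, the value deposited with each bin, ran from 0.25 to 1.61 with a median of 0.383, and the median of shared bins was 0.688. The lists start at a strength of 0.25, and 124 members (24.7%) lay under 0.3, against 60 shared bins (2.73%). Only 9 members (1.79%) reached a strength of 1, against 507 shared bins (23.0%). CP-only bins had nearly the same median, 0.382. In the weakest quintile of the GZ list 260 of 541 bins were members (48.1%), and in the strongest quintile 11 of 541 (2.03%). Since a bin under 0.25 is not listed, a member may have a weaker dip in CP that the list does not show.

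**Figure D1:**
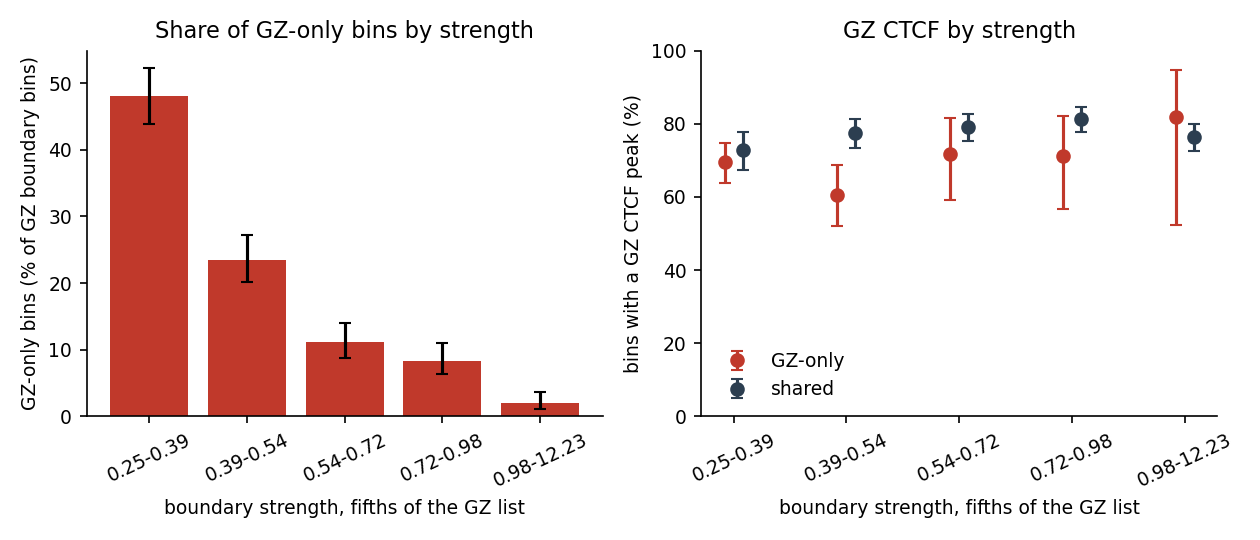
Left, the share of GZ boundary bins that are GZ-only in each quintile of strength, which falls from 48.1% to 2.03%. Right, the share of GZ-only and shared bins with a GZ CTCF peak in the bin or 20 kb on either side; bars are 95% Wilson intervals, and the intervals separate in the second quintile, at 60.6% against 77.5%.

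The nearest CP bin lay at a median of 280 kb, and at most 2040 kb, from a member. At the edge of the rule, the 776 shared bins with a CP bin 40 kb away had a median strength of 0.626, and the 88 members with a CP bin 80 kb away 0.517. Members lay inside 381 of 2466 intervals between neighbouring CP boundaries (15.5%). These CP intervals spanned a median of 1320 kb, and intervals without a member 800 kb. A longer interval has more room for a member, and the rule bars members within 40 kb of its ends. Part of this difference is thus built into the choice. Most of the 381 held 1 member (283), 82 held 2, and 16 held 3 or more. Members often had company in their own list: 193 (38.4%, 34.2% to 42.7%) had another GZ bin within 120 kb, against 10.9% of the shared bins (9.71% to 12.3%). CP-only bins had another CP bin as near in 42.3% of cases (36.65% to 48.1%). In 129 of these 193 the closest GZ neighbour was itself a member.

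CTCF was found at most members, in both tissues. In a window of 80 kb, the bin and 20 kb on each side, 342 of 503 members had a GZ CTCF peak (68.0%, 63.8% to 71.9%) and 284 had a CP CTCF peak (56.5%, 52.1% to 60.7%). Such windows held a GZ peak at 48.6% of all 66852 autosomal bins and a CP peak at 38.5%. Shared bins had peaks more often than members, at 77.9% in GZ and 70.2% in CP. CP-only bins had shares close to those of members: 68.3% for GZ peaks and 57.4% for CP peaks, a difference of -0.318 percentage points (interval -7.09 to 6.46) and -0.933 (-8.13 to 6.27). These intervals leave room for a difference of several points either way between bins called in GZ alone and bins called in CP alone.

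Few members had CTCF in 1 tissue alone, and the same held over all bins. Peaks of both tissues stood at 273 members (54.3%), of GZ alone at 69 (13.7%), of CP alone at 11 (2.19%) and of neither at 150 (29.8%). Over all autosomal bins the shares were 37.1% for both, 11.5% for GZ alone, 1.385% for CP alone and 50.05% for neither. At shared bins they were 68.5%, 9.45%, 1.77% and 20.3%. Counting peaks rather than windows, members had 715 GZ and 513 CP peaks, a ratio of 1.39, and the whole autosomal lists had the same ratio of 1.39. Shared bins had a ratio of 1.26 and CP-only bins 1.39. Of the 696 distinct GZ peaks at members, 464 overlapped a CP peak (66.7%, 63.1% to 70.1%), near the 65.5% of all GZ peaks and below the 73.2% (71.8% to 74.6%) at shared bins.

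Peak scores and heights were compared next. By peak score, GZ CTCF peaks at members had a median percentile of 55.4 in their list, and those at shared bins 53.3. Where a GZ and a CP peak overlapped, the authors' fold enrichments were compared. The log2 ratio of these folds, GZ over CP, had a median of 1.37 at members (middle 50% from 0.79 to 1.92). That median was 1.22 at shared bins and 1.24 over all peaks. The scaling behind these folds was not given in the sources used here, and the difference between classes was not tested.

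**Figure D2:**
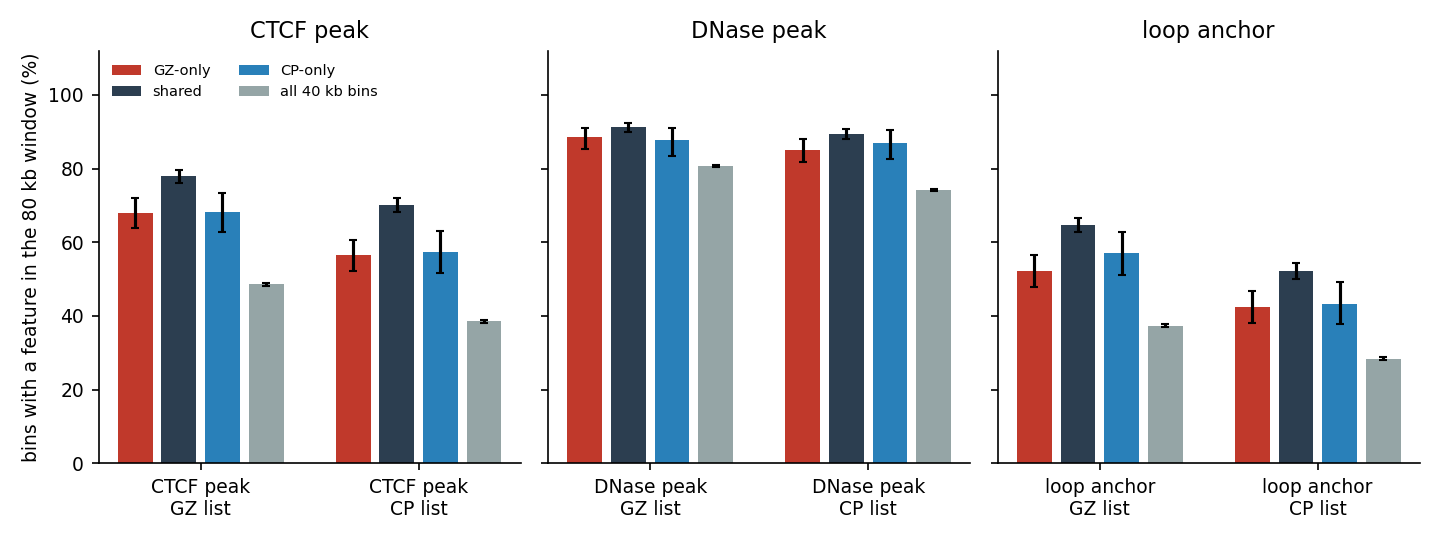
Share of bins with a CTCF peak, DNase peak or loop anchor of GZ or CP in an 80 kb window, for GZ-only, shared and CP-only boundaries and all autosomal 40 kb bins, with 95% Wilson intervals. GZ-only and CP-only bars stand between shared boundaries and all bins in each panel.

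Weighting for strength narrowed the gap to shared boundaries. Shared bins were weighted over 10 strata to the strengths of the members, which brought their share with a GZ CTCF peak from 77.9% to 73.5%. Members were then 5.52 percentage points lower (interval -11.4 to 0.378), and the interval reached 0. For CP CTCF peaks the weighted gap was -9.24 points (-15.4 to -3.06). The weakest stratum holds 51 members and only 10 shared bins, so the weighting is least firm there. In the second quintile of strength 60.6% of members (51.9% to 68.7%) and 77.5% of shared bins (73.3% to 81.3%) had a GZ peak. In the first the shares were 69.6% and 73.0%, with overlapping intervals.

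Around members CTCF was spread more evenly than around shared bins, lower at the bin and higher in the flank. These profiles were not weighted for strength. With weighting, the gap in the bin alone was -1.24 points for GZ peaks (-6.99 to 4.51), an interval that includes 0. A GZ peak stood in the member's own 40 kb bin in 45.9% of cases, in 44.9% to 46.3% of the bins 40 and 80 kb away on both sides. The mean was 0.696 peaks in the member bin and 0.5625 per bin at 400 to 600 kb, against 0.842 and 0.4905 for shared bins. The member bin thus held 1.24 times the flank, while shared bins held 1.72 times and CP-only bins 1.52 times theirs. With CP peaks the ratios were 1.25 at members, 1.87 at shared bins and 1.56 at CP-only bins.

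**Figure D3:**
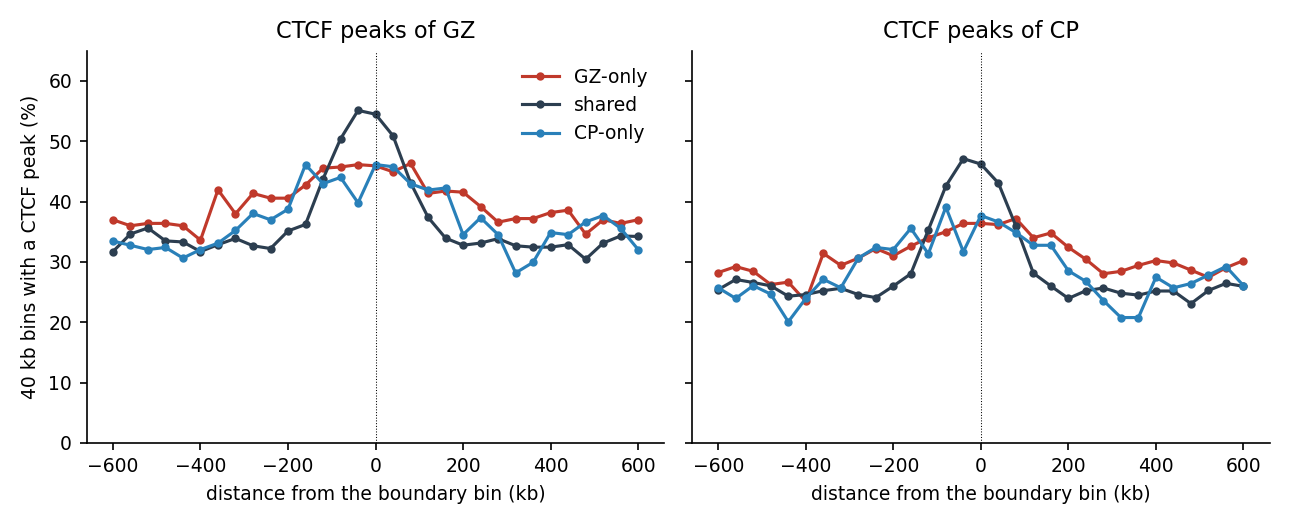
Share of 40 kb bins that hold a CTCF peak of GZ (left) or CP (right) by distance from GZ-only, shared and CP-only boundary bins. The shared line rises to a narrow top near 0 (54.5% in the boundary bin for GZ peaks), and the GZ-only line is lower there (45.9%) and higher farther out (41.7% against 33.9% at 160 kb). For CP-only bins the values are 46.1% in the bin and 42.25% at 160 kb. Strength was not weighted.

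Open chromatin separated the classes less. A GZ DNase peak stood in the window of 445 members (88.5%, 85.4% to 91.0%) and a CP peak in that of 428 (85.1%, 81.7% to 87.9%), against 80.8% and 74.2% of all bins. Shared bins had 91.2% and 89.5%, and CP-only bins 87.7% and 87.0%. With a DNase peak in most windows of any kind, the classes had little room to differ. Weighted for strength, members differed by -1.25 points for GZ peaks (-5.24 to 2.73) and by -3.74 for CP peaks (-7.96 to 0.484). DNase of GZ alone was seen at 32 members (6.36%) and of CP alone at 15 (2.98%), against 11.7% and 5.17% of all bins. Of the 150 members without CTCF in either tissue 102 had a GZ DNase peak, and of 33459 such bins over all autosomes 21787 did. GZ DNase peaks at members overlapped a CP peak in 62.0% of cases (59.5% to 64.5%), those at shared bins in 66.4% (65.2% to 67.5%) and all GZ peaks in 53.1%. At overlapping peaks the normalized tag count differed little between tissues, with a median log2 ratio, GZ over CP, of -0.01 at members and 0.07 at shared bins.

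Loop anchors were less common at members than at shared boundaries. A GZ anchor fell in the window of 263 members (52.3%, 47.9% to 56.6%) and a CP anchor in that of 213 (42.3%, 38.1% to 46.7%), against 37.3% and 28.4% of all bins. Shared bins had 64.7% and 52.2%, and CP-only bins 57.04% and 43.3%. Without weighting, members differed from CP-only bins by -4.76 points for GZ anchors (-11.98 to 2.47). After weighting for strength the gap was -10.65 points for GZ anchors (-16.8 to -4.50) and -7.72 for CP anchors (-13.95 to -1.49). CTCF went with anchors: of 342 members with a GZ CTCF peak 238 had a GZ anchor (69.6%), and of 161 without one 25 did (15.5%). Over all bins the shares were 63.7% and 12.5%, and at shared bins 75.04% and 28.2%. Anchors of GZ alone stood at 62 members (12.3%) and 318 shared bins (14.4%), against 11.1% of all bins. They stood at 52 CP-only bins (18.3%, 14.2% to 23.2%), a larger share than at members.

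Loops anchored at members were found in both tissues about as often as loops elsewhere. Of 465 GZ loops of 100 kb to 2 Mb with an anchor at a member, 245 (52.7%, 48.1% to 57.2%) were also in the CP list with both anchors within 1 bin of 10 kb, against 51.7% of all such GZ loops and 54.9% at shared bins. They spanned a median of 300.0 kb, shorter than the 500.0 kb at shared bins and the 430.0 kb of all. GZ loops at CP-only bins were also shorter than all, with a median of 365.0 kb. Of these, 45.8% (39.6% to 52.15%) were in both lists. Spans were not weighted for strength. The median ratio of observed to expected contacts was 3.20 at members, against 3.29 at shared bins.

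Loops also crossed the members. A loop of 100 kb to 2 Mb bridged 346 members in GZ (68.8%, 64.6% to 72.7%) and 232 in CP (46.1%, 41.8% to 50.5%). For CP-only bins the shares were 66.5% and 42.6%, for shared bins 46.2% and 28.8%, and for all bins 71.7% and 58.0%. Among the 643 shared bins with strength under the 75th percentile of the members, 66.6% (62.8% to 70.1%) were bridged in GZ and 43.4% in CP. Bridged in CP alone were 10 members (1.99%), and bridged in GZ alone were 124 (24.7%). Weak shared bins had 2.18% and 25.3%. The number of bridging loops in GZ over that in CP was 1.94 at members, 1.91 at shared bins, 2.17 at CP-only bins and 1.73 over all bins.

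Loop ends were less ordered around members, and around CP-only bins, than around shared boundaries. Loops tend to run away from a boundary on both sides, so that on its lower side loops end and on its upper side loops start. Within 200 kb of shared bins 77.1% of 10811 GZ loop ends pointed away in this sense, and within 200 kb of members 59.2% of 2314 (57.2% to 61.2%). Weak shared bins, under the 75th percentile of the members but not weighted for strength, lay between at 66.9% (65.1% to 68.6%). CP-only bins had 55.1% (52.4% to 57.8%). Loops of CP gave similar shares, 59.4% at members (56.8% to 61.9%), 58.5% at CP-only bins and 78.5% at shared bins, although these members are not in the CP boundary list. Loop ends near neighbouring bins can be counted more than once, and no interval given here for loop directions allows for that.

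**Figure D4:**
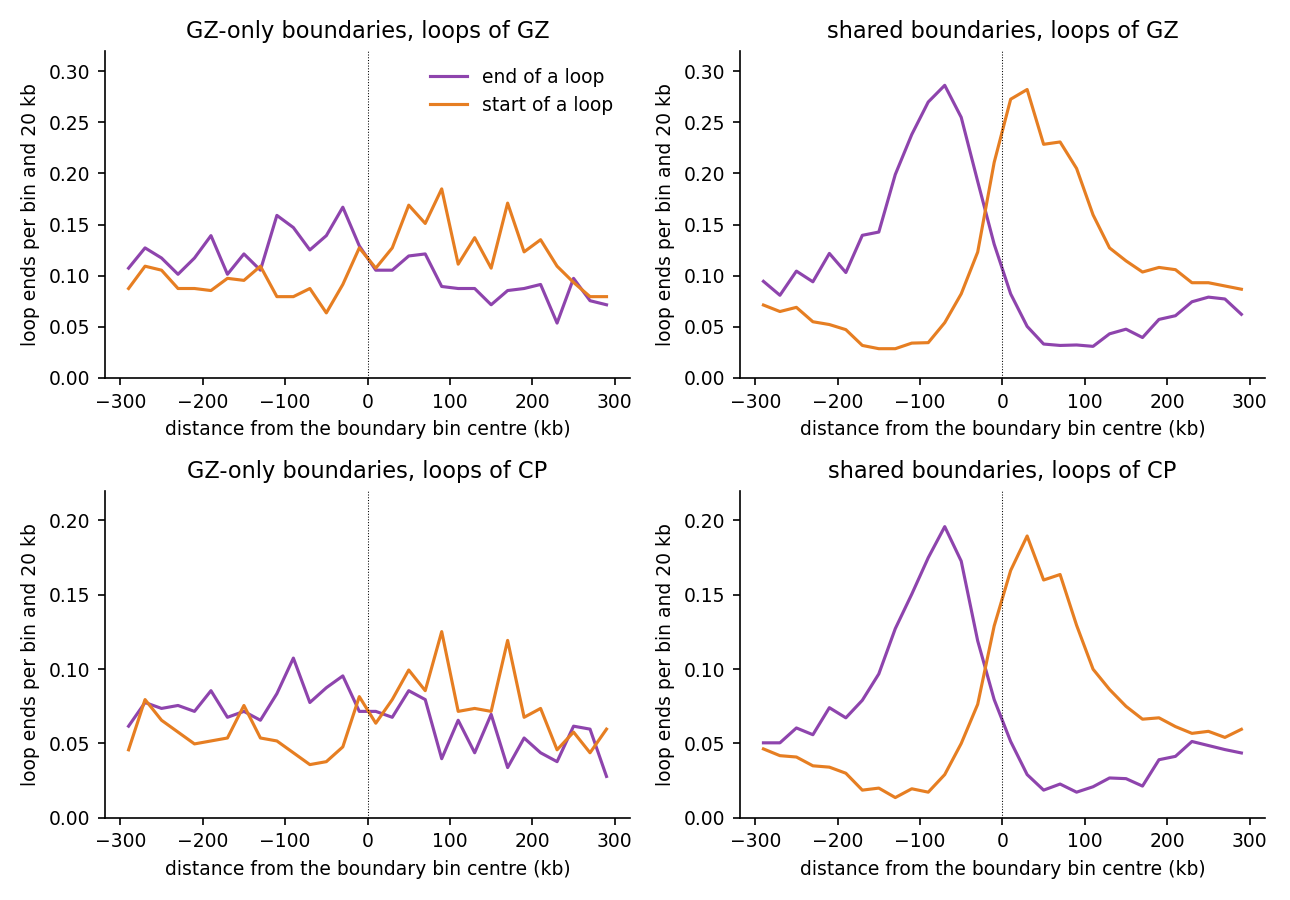
Mean number of loop starts (lower anchor) and loop ends (upper anchor) per bin in 20 kb steps from the bin centre, for GZ-only (left) and shared (right) boundaries and loops of GZ (top) and CP (bottom), 100 kb to 2 Mb long. At shared boundaries the lines cross steeply, and at GZ-only boundaries they cross in the same sense with a small separation.

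Members differed in marks with their distance from CP boundaries, by a split at 120 kb chosen after the data were seen. The 157 members with a CP bin at 80 to 120 kb were stronger than the 346 farther away (median 0.475 against 0.351) and yet had less CTCF. A GZ CTCF peak stood at 55.4% of the near members (47.6% to 63.0%) and 73.7% of the far ones (68.8% to 78.1%), and a GZ anchor at 38.2% and 58.7%. For 91 of the 157 the nearest CP bin was CP-only, so that a GZ bin and a CP bin, each without a partner, lay 80 to 120 kb apart. These 91 had a median strength of 0.582, and 61.5% had a GZ CTCF peak (51.3% to 70.9%). For the other 66 the nearest CP bin was shared; their median strength was 0.377, and 47.0% had a GZ peak (35.4% to 58.8%), within counting error of the 48.6% of all bins.

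Set against shared bins weighted to the same strengths over 5 strata, near members differed by -20.55 points for GZ CTCF peaks (-28.7 to -12.4), and far members differed by 0.513 (-5.95 to 6.97). For GZ loop anchors the gaps were -25.6 (-33.7 to -17.5) and -4.95 (-11.95 to 2.06). CP features gave the same order, with -25.5 (-33.7 to -17.4) and -2.79 (-9.76 to 4.18) for CP CTCF peaks. With this split, the gap in CTCF between members and shared boundaries of like strength was seen in the near members. In the far ones the interval spans 0. Far members had 60.5% of GZ loop ends pointing away (58.15% to 62.9%), below the 66.9% of weak shared bins. That shared set was only cut at the members' 75th percentile, so this comparison is not at like strength.

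**Figure D5:**
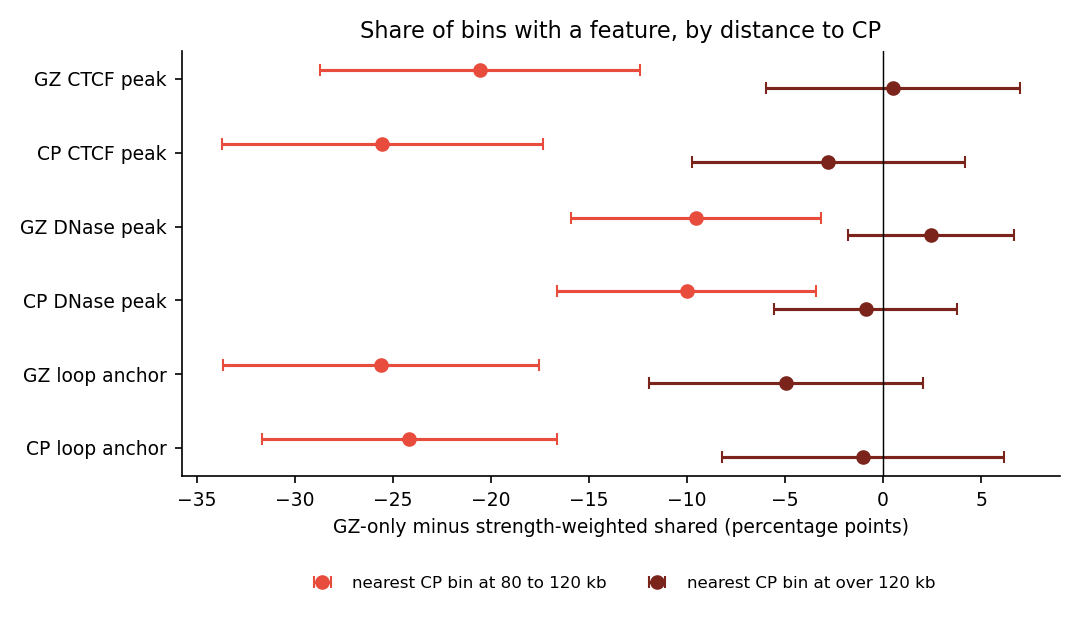
GZ-only minus shared boundaries in the share of bins with each feature, in percentage points, after weighting shared bins to the same strengths; bars are 95% intervals from counting error. Members with a CP bin at 80 to 120 kb lie left of 0 for all 6 features, and the intervals of members farther away all include 0.

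The 5 strongest members differed from one another in their marks. The strongest lay on chromosome 11 at 56720001 to 56760000 (1-based, rheMac8), with a strength of 1.61 and a CP bin 80 kb away; its window held 3 CTCF peaks in each tissue, with a best fold of 29.8 in GZ and 7.71 in CP, and no loop bridged it. On chromosome 12 at 92040001 to 92080000 (strength 1.20, CP bin at 80 kb) the window held 2 GZ CTCF peaks and no CP peak, and 4 GZ anchors against 1 CP anchor. The member on chromosome 2 at 91760001 to 91800000 (1.19, CP bin at 240 kb) had 5 GZ and 4 CP peaks and 3 and 2 anchors. By contrast chromosome 10 at 22400001 to 22440000 (1.17, CP bin at 120 kb) had no CTCF peak or anchor in either tissue and a single CP DNase peak. The last, chromosome 10 at 8040001 to 8080000 (1.09, CP bin at 80 kb), had 2 CTCF peaks in each tissue. Of the 5, CTCF was thus present in both tissues at 3, in GZ alone at 1 and in neither at 1.

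The 3 members named for their distance from CP boundaries held few marks, while of the 156 members over 400 kb away 73.1% had a GZ CTCF peak. Chromosome 5 at 73880001 to 73920000 lay 2040 kb from the nearest CP bin, had a strength of 0.375, and held no CTCF peak, DNase peak or anchor of either tissue. Chromosome 5 at 134440001 to 134480000 (1760 kb, 0.401) held 1 GZ DNase peak. Chromosome 14 at 41600001 to 41640000 (1720 kb, 0.414) held 1 CTCF peak in each tissue, with folds of 7.94 in GZ and 6.02 in CP. A weaker member at the same distance, chromosome 3 at 23200001 to 23240000, was looked up after its values were seen and held a GZ CTCF peak (fold 15.45) and a GZ anchor, with none in CP.

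The members named for their loops and CTCF peaks held both kinds of feature in both tissues. On chromosome 1 at 152160001 to 152200000 (strength 0.799, CP bin at 80 kb) 4 GZ and 3 CP loops of 100 kb to 2 Mb started in the bin, and its window held 3 CTCF peaks in each tissue and 6 GZ and 5 CP anchors. Chromosome 9 at 43640001 to 43680000 (0.624, CP bin at 680 kb) had 4 GZ and 2 CP loop starts, with 2 CTCF peaks in each. Chromosome 8 at 139880001 to 139920000 (0.445, CP bin at 160 kb) had 4 GZ and 3 CP loop starts, with 3 CTCF peaks in each. With 4 GZ loop starts these 3 tie with 4 weaker members. Looked up after its values were seen, chromosome 14 at 10880001 to 10920000 had a CTCF peak in GZ alone. Counting loops of any span, its window held 7 GZ anchors and no CP anchor. Only 1 GZ loop of 100 kb to 2 Mb started in its bin. The most GZ CTCF peaks in a bin, 5, were on chromosome 7 at 84800001 to 84840000, where CP had 4 and the strength was 0.372, and on chromosome 2 at 83800001 to 83840000, where CP also had 4 and the strength was 0.260, close to the start of the list. Chromosome 16 at 67920001 to 67960000 followed with 4 GZ peaks and 2 CP peaks in the bin (0.854, CP bin at 640 kb).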

How the data were processed

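Boundary strengths are scores on 40 kb bins, deposited by the authors without a header; their meaning was read from the values. Loops from HiCCUPS at 10 kb come with observed contact counts, an expected signal and an FDR (a q-value), per the file headers. The CTCF lists, as deposited by the authors, follow the MACS2 layout: a score, a fold ratio, −log10 p and −log10 q. DNase peaks from HOMER carry a score, a normalized tag signal, a fold ratio and a p-value, per the file headers. RNA is log2 FPKM normalized with cqn by the authors, per the labels. The submitters' processing notes list the tools Bowtie2, deepTools, HiC-Pro, HOMER, MACS2, SAMtools and STAR, and as builds Mmul_8.0.1 and rheMac8. A series note says that Hi-C contact files and runs were replaced or added later, and does not say whether the lists rest on them. Read depth of the DNase and CTCF libraries is unknown.

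A peak was placed by its summit (CTCF) or middle (DNase), a loop anchor by its middle. Peaks of the tissues overlapped when they shared 1 bp. Weighted differences have normal 95% intervals from binomial variances, and shares have Wilson intervals; sites in 1 library are not replicates. The background bins reach to the largest coordinate in any file. Python 3.11.15, numpy 2.4.6, pandas 2.3.3 and scipy 1.17.1 were used, and the code was checked on made-up lists. RNA values are levels only; no model was fitted. A marker gene of the neuron list is not reported here. Named boundaries are the 5 strongest members, the 3 farthest from CP, and the 3 at the start of the most GZ loops and with the most GZ CTCF peaks in the bin, with ties broken by strength. The members, lists and rules were chosen with earlier results of these data known. The split at 120 kb, the loop directions and the weak shared subset were chosen after seeing the data. Gene positions and sequences on rheMac8 were not used here.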

Additional observations from a re-analysis of the deposited data

How the results depend on the processing

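No paired analysis was possible because boundaries and loops have 1 pooled list per tissue, CTCF and DNase 1 library, and no result comes from a test; for the same reason no library could be left out of them. RNA near boundaries was not compared, since gene positions on rheMac8 were not used here. Counting only a CP bin in the same place gave 1279 members, and GZ bins above the median strength gave 79; 80 kb, 120 kb, lists of equal length and joined bins gave 415, 346, 354 and 466. In the bin alone the shares of members with a GZ and CP CTCF peak were 45.9% and 36.4%, with a DNase peak 70.4% and 64.4%, and with an anchor 30.8% and 23.3%. With 40 kb on each side they were 83.1% and 75.1%, 94.8% and 93.8%, and 67.8% and 56.5%. These moves follow from the width of the window. Better-scoring peaks, down to the median score, gave 46.3% and 39.2% for CTCF and 69.6% and 69.98% for DNase. GZ CTCF peaks as many as in CP gave 56.3%, against 56.5% for CP itself. Loops of 100 kb to 2 Mb gave 45.5% and 35.98% for anchors, and members above their median strength 46.4% and 35.7%.

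Apart from the members near CP taken alone, the gap to strength-weighted shared bins ran from -6.41 to 0.513 for GZ CTCF. For GZ anchors it ran from -14.3 to -4.64. Without weighting the gaps were -9.93 and -12.4. The GZ CTCF interval excluded 0 with 5 or 20 strata (-6.40 and -6.41), without weighting and with windows moved 20 kb lower (-6.17), a setting chosen after seeing the data. It included 0 for the bin alone (-1.24). Without the members near CP the gaps were -0.852 and -4.64 with 10 strata and 0.513 and -4.95 with 5, all with intervals that include 0. The DNase gap was 1.035 in the bin alone (-4.88 to 6.95), with no cause tested.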

Other observations

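Members were spread over all 20 autosomes, and on each of them GZ-only bins outnumbered CP-only bins. Their share of the GZ bins ran from 8.96% on chromosome 20 (6 of 67, 4.17% to 18.2%) to 28.9% on chromosome 16 (28 of 97, 20.8% to 38.6%), with a median of 19.1%. Of the 20 intervals, those of chromosomes 20 and 16 did not include the 18.6% of all autosomes. Chromosome X, which was outside the rule, had 16 GZ-only bins of 102 (15.7%) and 12 CP-only bins of 98.

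CTCF around shared boundaries was not centred on the listed bin. GZ peaks stood in 50.4% of the bins 80 kb lower and 43.1% of the bins 80 kb higher, and 1956 GZ loops started in the windows of shared bins while 995 ended there. At members the matching values were 45.7% and 46.3%, and 227 and 245. No source used here says how the deposited bins were placed relative to the insulation minimum.

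A single member held 65 of the 671 GZ anchors and 31 of the 400 CP anchors counted over members. It lies on chromosome 3 at 51480001 to 51520000, with a strength of 0.323 and a CP bin at 560 kb. Of its 65 GZ loops 42 spanned more than 10 Mb, and no other member had more than 12 GZ anchors. With 40 kb on each side, the highest count at a member was 417 of 1376 GZ anchors and 292 of 872 CP anchors. The highest GZ count in any autosomal 40 kb bin was also 417. Member bins themselves held at most 6 GZ anchors, so that bin was not a member. Bins 40 kb higher than members had a mean of 1.477 GZ anchors, against 0.571 in the member bins and 0.652 at 80 kb higher. Whether the member with 417 anchors is the one on chromosome 3 was not looked up.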
